A study of Mus musculus with 12 samples.

Results

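Slc7a11 encodes xCT, the light chain of the cystine/glutamate exchanger system xc-, and its counts in the prefrontal cortex (PFC) of these mice differed in level between the groups. Its mean level was 69.2 ± 9.60 CPM (counts scaled to a common library size; SD, n = 4) in conventionally raised mice (CON), 45.3 ± 12.9 CPM in germ-free mice (GF) and 31.7 ± 2.51 CPM in mice that were germ-free until weaning and colonized afterwards (exGF). The other 9 genes had no call between any groups. They encode the membrane partner of xCT, enzymes of glutathione and thioredoxin metabolism, a quinone reductase, a heme oxygenase and the transcription factor NRF2. The genes described are Slc7a11, Slc3a2, Gclc, Gclm, Nqo1, Hmox1, Srxn1, Txnrd1, Gpx4 and Nfe2l2, which are 10 of the 41388 genes in the count table, chosen by name. Slc7a11 was included because its counts were already known to be lower in GF and exGF libraries, so its values are given as a description with no p-value, and no count of calls that includes it is read as evidence. The partner and the NRF2-controlled genes were added for their function.

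The data were RNA-sequencing counts of hand-dissected medial PFC of male Swiss Webster mice aged 10 weeks, 4 libraries per group, each from RNA pooled from 2 to 3 animals. CON mice carried a conventional microbiota, GF mice lived in isolators throughout, and exGF mice left the isolators on postnatal day 21 for the standard animal unit, where environmental microbes colonized them. All groups ate the same autoclaved diet. Time in an isolator and absence of microbes cannot be told apart in this design. GF and exGF mice came from GF breeding pairs and CON mice from CON breeding pairs of the same supplier. Descent therefore cannot be told apart from microbial status before weaning either. The count table names 4 columns GFR1 to GFR4. Since 8 columns bear CON or GF names and the labels leave only exGF samples unplaced, these 4 stand for exGF here, without a match to single samples. The excitatory neuron marker Slc17a7 was at 1333 to 1629 CPM in every library, and choroid plexus markers summed to at most 15.8 CPM. No marker particular to the medial PFC was examined, so the region rests on the label. In bulk tissue, fewer cells of a type and less RNA per cell cannot be told apart.

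System xc- brings cystine into the cell in exchange for glutamate, and in the brain it is best known in astrocytes and in the meninges. Imported cystine is reduced to cysteine, which limits the synthesis of glutathione, the main thiol antioxidant of the cell. NRF2, the product of Nfe2l2, binds antioxidant response elements in the promoters of many of these genes when its inhibitor KEAP1 releases it, whereas ATF4, the factor of the amino acid response, acts through a separate element and is also known to drive Slc7a11.

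The promoters of Slc7a11 and Gclm show these distinct elements and are printed because the former gene was low in exGF and the latter had no call. Each is the 250 bases before the RefSeq start (GRCm38.p6), given 5′ to 3′ on the strand of the gene. In Slc7a11 (minus strand, chr3:50443614-50443863) the capitals mark matches to the ATF4 element TGATGNAA, and in Gclm (plus strand, chr3:122245307-122245556) the match to the antioxidant response element core TGACNNNGC.
Slc7a11: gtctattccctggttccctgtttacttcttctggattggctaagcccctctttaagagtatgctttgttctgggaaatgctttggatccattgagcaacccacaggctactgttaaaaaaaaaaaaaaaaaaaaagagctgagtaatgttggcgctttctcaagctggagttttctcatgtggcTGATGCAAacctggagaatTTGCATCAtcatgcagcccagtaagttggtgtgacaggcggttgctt
Gclm: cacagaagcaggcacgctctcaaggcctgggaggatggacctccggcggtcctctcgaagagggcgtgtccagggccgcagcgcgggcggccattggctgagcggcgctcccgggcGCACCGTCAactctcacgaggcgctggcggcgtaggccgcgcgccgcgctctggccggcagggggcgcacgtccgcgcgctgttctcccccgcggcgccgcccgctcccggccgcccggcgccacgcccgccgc
The ATF4 element was matched 2 times before Slc7a11, from base -66 to base -59 on the gene's strand and from base -47 to base -40 on the opposite strand. It was found in 1 of the 8 members with a promoter sequence, and in 3.45% of all 32851 RefSeq promoters of this length, with both strands searched. The antioxidant response element core was found for 3 of those 8 members (Gclm, Txnrd1 and Nfe2l2) and in 10.2% of all promoters, and not within these 250 bases of Slc7a11. The looser form TGANNNNGC, which contains the core, was found for 5 of the 8 members, Slc7a11 and Srxn1 among them, and in 35.2% of all promoters. At Slc7a11 one of its matches overlaps the second ATF4 match. The 2 matches of the AP-1 site TGANTCA before Srxn1 (each read on both strands) include one that is also a loose antioxidant response element, and 6.75% of all promoters hold this site. GC boxes (GGGCGG), present in 32.7% of all promoters, were found for 7 of the 8 members and not for Slc7a11. The 8 members have 13 promoter entries, 4 of them for Gpx4 and 3 for Txnrd1, so a member counts as holding a motif if any of its entries does, and counts of members are not on the same base as the shares of all promoters. Gclc and Hmox1 have no promoter entry. For the entries of Slc3a2 and Nfe2l2 and for a Gpx4 entry, the bases after the start were not found in an annotated transcript of the gene. The core match of Nfe2l2 comes from such an entry.

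Slc7a11 (ENSMUSG00000027737, chromosome 3 from 49892526 to 50443614, minus strand, GRCm38) had between 518 and 1870 counts per library. Its level was 76.7, 77.5, 57.8 and 64.6 CPM in CON replicates 1 to 4. In GF it was 38.5, 64.6, 39.6 and 38.4 CPM, and in GFR1 to GFR4 it was 34.5, 33.1, 30.1 and 29.1 CPM. All exGF libraries lay below every CON and every GF library, and 3 of the 4 GF libraries lay below every CON library, while GF replicate 2 lay within the CON range. The log2 fold change was -0.61 (SE 0.16) in GF relative to CON, -1.13 (SE 0.11) in exGF relative to CON and -0.52 (SE 0.16) in exGF relative to GF. These comparisons share libraries and are not independent of each other. Without GF replicate 2 the GF mean was 38.8 ± 0.659 CPM (SD, n = 3), a change of -43.9% from the CON mean, and the log2 fold changes were -0.83 in GF relative to CON and -0.29 in exGF relative to GF. Of the 10 members, 1 (Slc7a11) was called in exGF relative to CON, where 0.0696% of 15813 genes tested were called and 0.0443% were called lower. In GF relative to CON 0 were called, where 0.251% of 15542 genes were. Slc7a11 was also the only member whose exGF libraries all lay below CON, which held for 1.52% of all genes, and 0 members lay wholly below CON in GF, where 2.55% of all genes did. As the gene was chosen for this pattern, nothing is read from those counts.

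**Figure D1:**
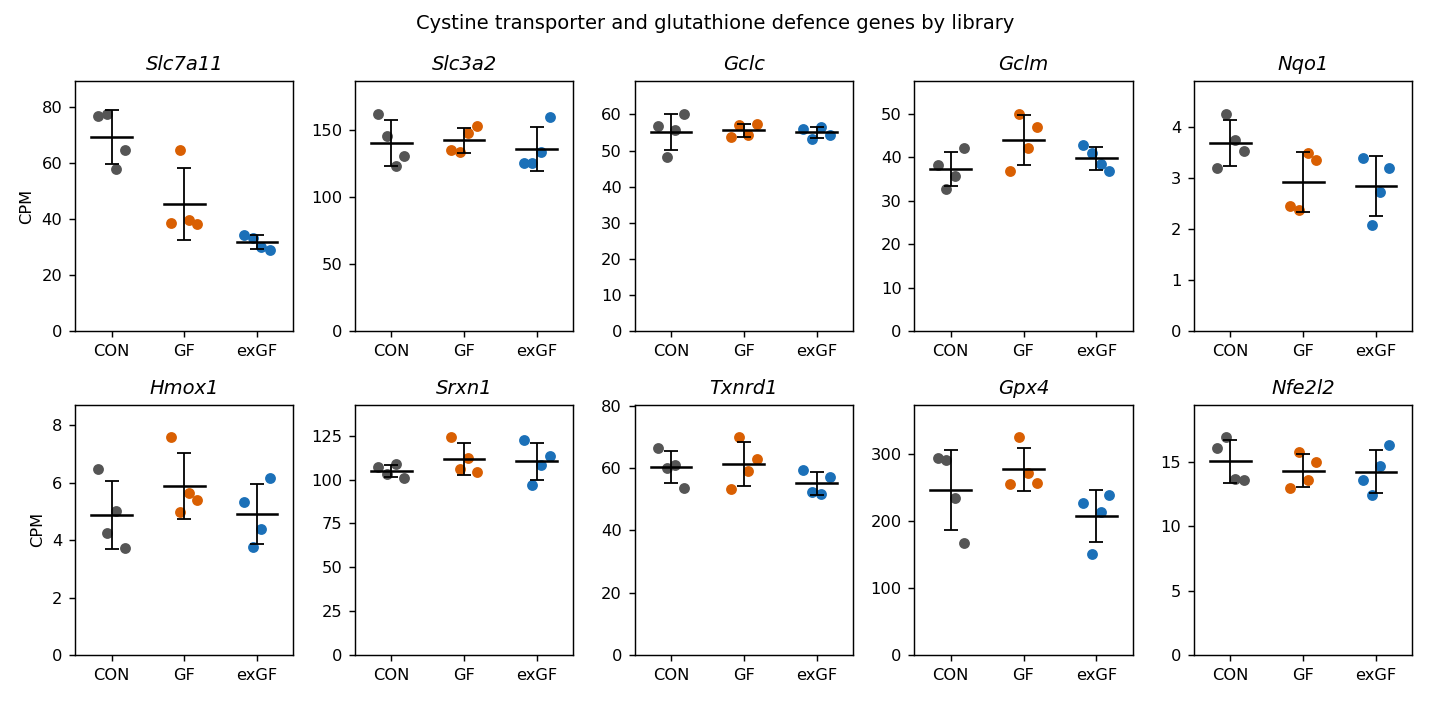
Levels of the 10 genes in CPM (linear axes from 0) in the 12 libraries, as points for CON, GF and exGF, with the mean (bar) and SD (whiskers) of 4 libraries. Slc7a11 shows 4 exGF libraries at 29.1 to 34.5 CPM below all others and GF replicate 2 at 64.6 CPM among the CON libraries, whereas the groups of the other genes overlap except for Gpx4 in exGF relative to GF.

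Slc3a2 (ENSMUSG00000010095, chromosome 19 from 8706882 to 8723369), the heavy chain CD98 that carries xCT and several other light chains to the membrane, did not share this pattern. Its level was 162, 146, 123 and 131 CPM in CON, 135, 134, 148 and 153 CPM in GF, and 125, 125, 134 and 160 CPM in exGF, so that all groups overlapped. The log2 fold change was 0.02 (SE 0.10, edgeR quasi-likelihood adjusted p = 0.973) in GF and -0.05 (SE 0.11, edgeR quasi-likelihood adjusted p = 0.993) in exGF relative to CON. The 95% interval of the exGF change ran from 0.819-fold to 1.14-fold. The ratio of Slc7a11 to Slc3a2 in CPM was 0.492 ± 0.0285 in CON (range 0.470 to 0.532), 0.322 ± 0.108 in GF and 0.237 ± 0.0420 in exGF (range 0.182 to 0.275, n = 4 each). In GF this ratio was 0.483 in replicate 2 and 0.251 to 0.284 in the other 3 libraries.

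Glutathione is made by glutamate-cysteine ligase, with a catalytic subunit from Gclc and a modifier subunit from Gclm, and glutathione synthetase. Gclc (ENSMUSG00000032350, chromosome 9 from 77754535 to 77794485) had close means in all groups, 55.3 ± 5.0, 55.6 ± 1.75 and 55.1 ± 1.46 CPM in CON, GF and exGF. Its change in exGF relative to CON had a 95% interval from 0.874-fold to 1.13-fold. Gclm (ENSMUSG00000028124, chromosome 3 from 122245557 to 122270732) was at 38.3, 32.8, 35.7 and 42.1 CPM in CON and at 36.8, 50.1, 42.1 and 47.0 CPM in GF. These ranges overlapped, and the log2 fold change of 0.24 (SE 0.11) had an unadjusted p of 0.0464 and an adjusted p of 0.568 by edgeR's quasi-likelihood test. In exGF Gclm was at 36.9 to 42.7 CPM, 0.09 (SE 0.09) above CON on the log2 scale with an edgeR adjusted p of 0.973. In the annotation 540 exonic bases of Gclm are shared with Gm17494 on the other strand and the pseudogene Gm6061.

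Of the genes that repair oxidized thiols, Srxn1 (ENSMUSG00000032802), which encodes sulfiredoxin, had 105 ± 3.51 CPM in CON, 112 ± 9.03 CPM in GF and 110 ± 10.7 CPM in exGF. Txnrd1 (ENSMUSG00000020250), which encodes the cytosolic thioredoxin reductase, had 60.4 ± 5.22, 61.3 ± 7.02 and 55.1 ± 3.63 CPM. Their log2 fold changes relative to CON ran from -0.14 (Txnrd1 in exGF, SE 0.09, edgeR quasi-likelihood adjusted p = 0.952) to 0.09 (Srxn1 in GF, SE 0.08, edgeR quasi-likelihood adjusted p = 0.808). Their groups overlapped in every comparison.

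Gpx4 (ENSMUSG00000075706, chromosome 10 from 80047166 to 80056439), the glutathione peroxidase that removes lipid hydroperoxides, was the only gene other than Slc7a11 with groups that did not overlap. Its level was 294, 291, 234 and 168 CPM in CON, 256, 325, 272 and 257 CPM in GF, and 227, 151, 214 and 239 CPM in exGF. Every exGF library was below every GF library, while the CON libraries covered most of both ranges. The log2 fold change in exGF relative to GF was -0.42 (SE 0.13), with an unadjusted p of 0.00697 and an adjusted p of 0.736 by edgeR's quasi-likelihood test, so no call was made. Slc7a11, chosen for its low counts, is left out of the count that follows. Groups that did not overlap, with exGF the lower, were found for 1 of the 9 other members (Gpx4) and for 1.55% of the 15569 genes tested. Relative to CON the changes of Gpx4 were 0.17 (SE 0.15) in GF and -0.26 (SE 0.17) in exGF on the log2 scale, with edgeR quasi-likelihood adjusted p of 0.794 and 0.952.

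The classical NRF2 targets Nqo1 and Hmox1 were the least abundant members, with 33 to 110 counts per library for Nqo1. Nqo1 (ENSMUSG00000003849), a quinone reductase, was at 3.20, 4.26, 3.75 and 3.54 CPM in CON, 2.45, 2.37, 3.49 and 3.36 CPM in GF, and 3.40, 2.07, 2.72 and 3.20 CPM in exGF. Nqo1 had a log2 fold change of -0.33 (SE 0.20, edgeR quasi-likelihood adjusted p = 0.663) in GF and -0.38 (SE 0.19, edgeR quasi-likelihood adjusted p = 0.940) in exGF relative to CON, with overlapping groups and a 95% interval in exGF from 0.579-fold to 1.02-fold. Hmox1 (ENSMUSG00000005413), the inducible heme oxygenase, had 4.87 ± 1.19 CPM in CON, 5.90 ± 1.16 CPM in GF and 4.91 ± 1.06 CPM in exGF. At these counts the intervals of both genes were wide, and for Hmox1 in GF relative to CON the interval ran from 0.895-fold to 1.61-fold. The Nfe2l2 transcript itself (ENSMUSG00000015839, chromosome 2 from 75675513 to 75704641) had 15.1 ± 1.69, 14.3 ± 1.27 and 14.3 ± 1.64 CPM. Its changes relative to CON were -0.07 (SE 0.12) in GF and -0.08 (SE 0.12) in exGF on the log2 scale, with edgeR quasi-likelihood adjusted p of 0.912 and 0.982. NRF2 is controlled mainly through the stability of its protein, which was not measured here.

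**Figure D2:**
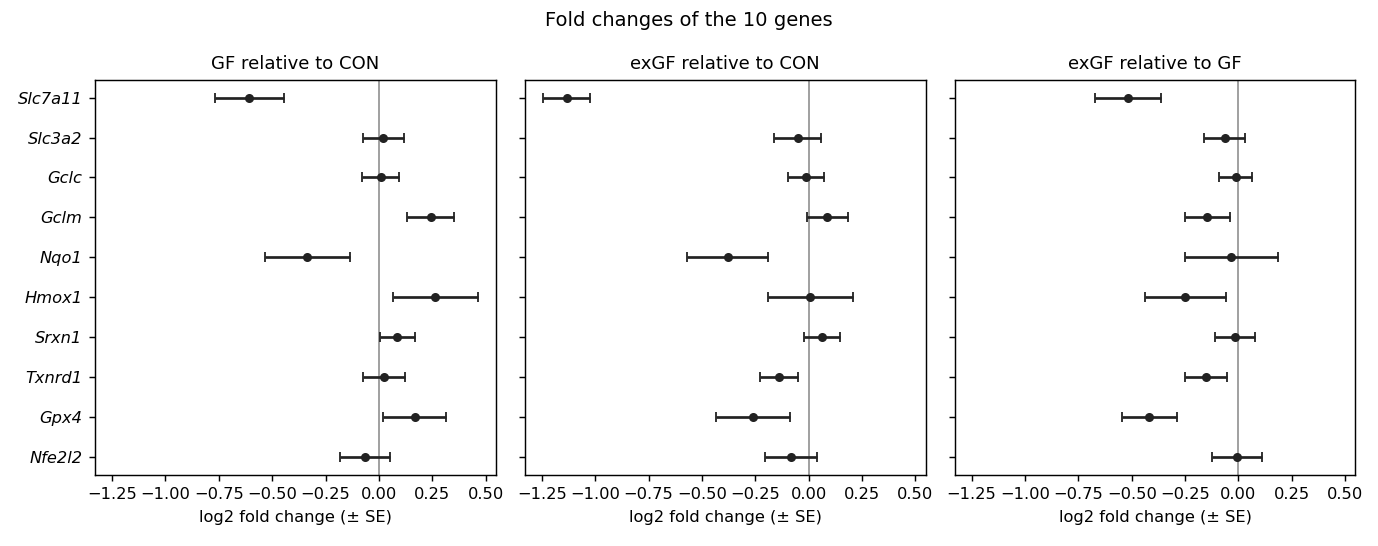
Log2 fold changes of the 10 genes (points, with SE as whiskers) in the 3 comparisons between groups. Slc7a11 lies at -0.61, -1.13 and -0.52, and the other 9 genes lie between -0.42 and 0.26.

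Over the 9 genes other than Slc7a11, 7 log2 fold changes were above 0 in GF relative to CON and 3 in exGF relative to CON. Their medians were 0.02 in GF and -0.05 in exGF relative to CON, beside 0.01 and -0.01 over all genes tested. In exGF relative to GF all 9 were below 0, by -0.01 to -0.42 on the log2 scale (median -0.06, beside -0.00470 over all genes). For Gclc, Srxn1 and Nfe2l2 the change was only -0.01, with SE of 0.08, 0.09 and 0.12. The signs of these genes and of Nqo1 changed when some libraries were left out, so the 9 signs are not read as a shared fall. By edgeR's quasi-likelihood test 0 of the 9 were called in any comparison, and an unadjusted p under 0.05 was reached by 1 in GF relative to CON (Gclm), 0 in exGF relative to CON and 1 in exGF relative to GF (Gpx4). Of all genes tested, 8.69%, 5.33% and 6.65% reached that level in the same comparisons. Called genes made up 0.251%, 0.0696% and 0% of all genes tested there. With so few calls, 0 of 9 does not show that these genes were unchanged. DESeq2 and limma-voom also called 0 of the 9.

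Per kilobase of the principal transcript, the order of levels in CON was Gpx4 (258 ± 61.9 CPM per kb), Slc3a2 (77.2 ± 9.54), Srxn1 (37.4 ± 1.25), Txnrd1 (17.1 ± 1.48), Gclc (16.1 ± 1.46), Slc7a11 (7.50 ± 1.04), Gclm (6.66 ± 0.702), Nfe2l2 (6.09 ± 0.684), Hmox1 (3.10 ± 0.761) and Nqo1 (2.37 ± 0.287). The ranges of Txnrd1 and Gclc, of Slc7a11 and Gclm, of Gclm and Nfe2l2 and of Hmox1 and Nqo1 overlapped in CON, and those of the other neighbours did not. In exGF the order of Slc7a11 was 8 of 10, at 3.43 ± 0.272 CPM per kb, below Nfe2l2 (5.76 ± 0.664) and overlapping with Hmox1 (3.13 ± 0.675). Lengths are those of GENCODE M21, where 1 Slc7a11 transcript reaches far beyond the principal one, and the models used for counting may differ.

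Markers of the meninges, a site of Slc7a11 expression, moved in the same comparisons. All 16 meningeal markers had log2 fold changes below 0 in GF and in exGF relative to CON, with medians of -0.44 and -0.45, and an unadjusted p under 0.05 was reached by 11 and 13 of them, where 3.94% and 2.87% of all genes were lower at that level. By edgeR's quasi-likelihood test 2 of the 16 were called lower in GF, as were 0.135% of all genes, and 0 in exGF. Their summed level was 1019 to 1750 CPM in CON, 927 to 1128 CPM in GF and 771 to 1177 CPM in exGF, most of it from Ptgds, which oligodendrocytes also express. Within CON, replicates 1 and 2 had meningeal sums of 1647 and 1750 CPM and Slc7a11 at 76.7 and 77.5 CPM, and replicates 3 and 4 had sums of 1208 and 1019 CPM and Slc7a11 at 57.8 and 64.6 CPM. Within GF the sums were 927, 1039, 1051 and 1128 CPM for replicates 1 to 4, of which replicate 2 had the high Slc7a11 level. Within exGF the sums were 1016, 771, 1122 and 1177 CPM for GFR1 to GFR4, with Slc7a11 at 34.5, 33.1, 30.1 and 29.1 CPM. There the libraries with the highest sums, GFR3 and GFR4, had the lowest Slc7a11. Among the 16 markers the lowest log2 fold change in exGF was -0.65, beside -1.13 for Slc7a11, and in GF it was -0.94, beside -0.61. The part of the meningeal markers in the Slc7a11 values was not tested.

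Astrocyte markers, the other likely source, summed to 4919 to 5339 CPM in CON, 4973 to 5470 CPM in GF and 4666 to 5256 CPM in exGF, and 0 of 12 were called by edgeR in either comparison with CON. The unadjusted p was under 0.05 for 1 astrocyte marker in the higher and 1 in the lower direction in GF, together 16.7% of the 12, beside 8.69% of all genes. In exGF it was under 0.05 for 3 of the 12, or 25%, all lower, where 2.87% of all genes were lower at that level. Microglial markers summed to 406 to 489 CPM in CON, 364 to 403 CPM in GF and 340 to 373 CPM in exGF, so that both groups lay below CON. Of these 10 markers 1 was called lower in GF, as were 0.135% of all genes, and 0 in exGF. An unadjusted p under 0.05 in the lower direction was reached by 3 in GF and 7 in exGF, beside 3.94% and 2.87% of all genes. Oligodendrocyte markers went the other way in GF, with 7 of 12 called higher beside 0.116% of all genes. Of the 10 endothelial, 8 precursor and 12 neuronal markers, 0 were called by edgeR in any comparison, with at most 3 of any list at an unadjusted p under 0.05. Of all genes, 5.33% to 8.69% were at that level in the 3 comparisons, and 0% to 0.251% were called. All 12 neuronal markers were above 0 in GF relative to CON, and their sum was 13334 to 14091 CPM in GF, wholly above the 11484 to 13013 CPM in CON, with 12178 to 13669 CPM in exGF. Choroid plexus markers were mostly too low to test, with 3 or 4 of 10 tested and 0 called. The part of these markers in the Slc7a11 values was not tested either.

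**Figure D3:**
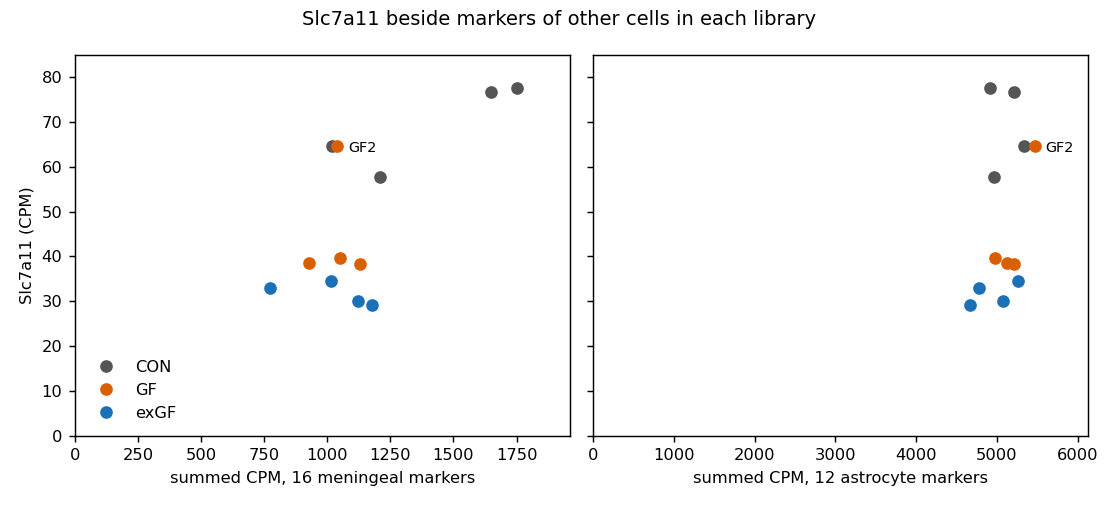
Slc7a11 level (CPM, vertical axis) against the summed CPM of 16 meningeal markers (left) and of 12 astrocyte markers (right) in the 12 libraries of CON, GF and exGF. CON replicates 1 and 2 have the highest meningeal sums (1647 and 1750 CPM) and the highest Slc7a11 (76.7 and 77.5 CPM), and the other 10 libraries have sums of 771 to 1208 CPM with Slc7a11 at 29.1 to 64.6 CPM. Within exGF, GFR3 and GFR4 have the highest meningeal sums (1122 and 1177 CPM) and the lowest Slc7a11 (30.1 and 29.1 CPM).

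The wider pathway was read from 9 lists that together hold 227 genes beside the members, of which 199 had enough counts in GF relative to CON and 200 in the other comparisons. By edgeR's quasi-likelihood test 0 of them were called in any comparison, and DESeq2 and limma-voom called 0 as well. An unadjusted p under 0.05 was reached by 8.54% of them in GF relative to CON, 3% in exGF relative to CON and 6% in exGF relative to GF, beside 8.69%, 5.33% and 6.65% of all genes tested. Called genes made up 0.251%, 0.0696% and 0% of all genes tested, in the same order. The list medians lay between -0.13 and 0.10 on the log2 scale for every list in each comparison.

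The ATF4 list, whose element was found before Slc7a11, had a median log2 fold change of 0.02 in GF and -0.00158 in exGF relative to CON over 32 genes. In GF 5 of its genes had an unadjusted p under 0.05, and in exGF 0 had, beside 8.69% and 5.33% of all genes. Mthfd2, a mitochondrial folate enzyme, had 4.24 ± 0.437 CPM in CON, 5.68 ± 0.835 CPM in GF and 3.47 ± 0.383 CPM in exGF. Its log2 fold change in exGF relative to GF was -0.71 (SE 0.16), with an unadjusted p of 0.000820 and an adjusted p of 0.709 by edgeR's quasi-likelihood test. Aldh1l2, another mitochondrial folate enzyme, had 6.58 ± 0.893 CPM in GF and 4.87 ± 0.484 in exGF, with an edgeR quasi-likelihood adjusted p of 0.736. For both genes all exGF libraries lay below all GF libraries. The point far from the rest of this list is Atf3, named after its values were seen. Its log2 fold changes were 1.44 in GF and 0.34 in exGF relative to CON and -1.09 in exGF relative to GF, none called. Atf3 was low, with 0.425 ± 0.204 CPM in CON and 1.14 ± 1.05 CPM in GF, and these groups overlapped. Slc7a3, a cationic amino acid transporter, had 9.06 ± 0.691 CPM in CON and 7.08 ± 0.364 in GF, with groups that did not overlap and an edgeR quasi-likelihood adjusted p of 0.402.

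Among the NRF2 targets outside the members, the median log2 fold change was 0.03 in GF and -0.02 in exGF relative to CON over 31 and 32 genes. Fth1, the ferritin heavy chain, had 1461 ± 263 CPM in CON, 1784 ± 183 CPM in GF and 1434 ± 167 CPM in exGF. The transporter gene Abcc5 had 126 ± 11.5 CPM in GF and 163 ± 27.4 in exGF. Fth1 had an edgeR quasi-likelihood adjusted p of 0.492 in GF relative to CON. In exGF relative to GF it was 0.736 for both genes, and the groups overlapped in each of these comparisons. Nqo2 had 8.45 ± 0.408 CPM in CON and 6.93 ± 0.440 in exGF, with no overlap and an edgeR quasi-likelihood adjusted p of 0.825. Among NRF2 and its regulators, Bach2, a repressor that competes for the same DNA elements, had 11.3 ± 0.864 CPM in CON and 8.61 ± 1.4 in GF, with an edgeR quasi-likelihood adjusted p of 0.414. Trim21 had 3.54 ± 0.595 and 2.35 ± 0.360 CPM in the same groups, with no overlap and an edgeR quasi-likelihood adjusted p of 0.398. Rbx1, a subunit of the ligase that marks NRF2 for breakdown, had 89.6 ± 6.32 CPM in GF and 76.5 ± 8.05 in exGF. Its groups overlapped, with an edgeR quasi-likelihood adjusted p of 0.736.

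The glutathione peroxidases and transferases had the lowest of the 9 list medians in exGF relative to CON, -0.13 on the log2 scale over 22 genes. Of the 22, 3 were lower and 0 higher at an unadjusted p under 0.05, where 2.87% of all genes were lower. The 3 lower genes were Gstm2, with 5.49 ± 1.33 CPM in CON and 3.18 ± 0.934 in exGF, Gpx8, with 6.89 ± 1.33 and 4.82 ± 0.725, and Gsta4, with 51.9 ± 9.55 and 39.5 ± 5.61. Their edgeR quasi-likelihood adjusted p were 0.610, 0.698 and 0.737, and reads of Gstm2 may be lost to close copies in its family. In the list of glutathione synthesis, recycling and breakdown, Ggt1, which cleaves extracellular glutathione, had 1.23 ± 0.303 CPM in CON, 1.86 ± 0.448 CPM in GF and 2.02 ± 0.475 CPM in exGF, with all exGF libraries above CON and an edgeR quasi-likelihood adjusted p of 0.741. The glutaredoxin gene Glrx had 24.8 ± 3.81 CPM in CON and 30.0 ± 0.451 in GF, and Glrx5 had 22.4 ± 3.31 CPM in GF and 16.7 ± 2.45 in exGF. The groups of Glrx did not overlap and those of Glrx5 did, with edgeR quasi-likelihood adjusted p of 0.488 and 0.736. In the thioredoxin list, Prdx5 had 186 ± 11.7 CPM in GF and 158 ± 19.4 in exGF, and Sesn2 had 18.9 ± 3.94 CPM in CON and 14.9 ± 1.73 in GF. The groups overlapped for both, with edgeR quasi-likelihood adjusted p of 0.736 and 0.530.

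Among partners and relatives of the transporter, Slc1a6, a neuronal glutamate transporter, had 11.5 ± 0.572 CPM in CON and 8.70 ± 0.806 in GF, with no overlap and an edgeR quasi-likelihood adjusted p of 0.291. Grm2, a glutamate receptor on nerve endings, had 77.5 ± 8.06 CPM in GF and 92.0 ± 13.3 in exGF. Its groups overlapped, with an edgeR quasi-likelihood adjusted p of 0.739. The cysteine supply list had median log2 fold changes of -0.02 in exGF relative to CON over 19 genes and -0.06 in exGF relative to GF over 20 genes. In the list of lipid peroxidation and iron handling, the transferrin receptor gene Tfrc had 87.9 ± 10.5 CPM in CON and 111 ± 24.3 in GF, Alox5 had 1.28 ± 0.194 and 0.715 ± 0.287, and Fads2 had 122 ± 9.13 and 104 ± 12. The groups of all these genes overlapped, with edgeR quasi-likelihood adjusted p of 0.496, 0.500 and 0.508.

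**Figure D4:**
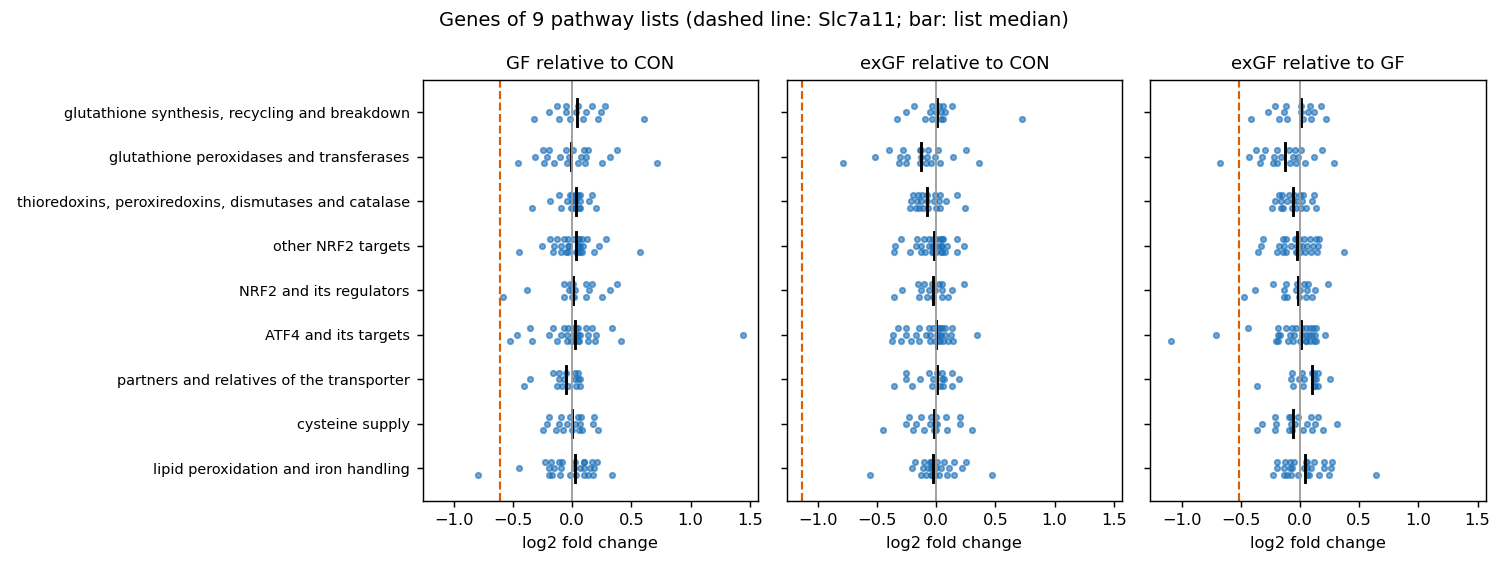
Log2 fold changes of the tested genes of 9 pathway lists (points) in the 3 comparisons, with each list's median as a black bar and the Slc7a11 value as a dashed line. List medians lie between -0.13 and 0.10, and in exGF relative to CON no listed gene is as low as Slc7a11 (-1.13). In GF relative to CON Alox5 (-0.79) lies below Slc7a11 (-0.61). In exGF relative to GF listed genes down to Atf3 (-1.09) lie below Slc7a11 (-0.52). Slc7a11 was chosen for its low level, so its place among the lists is only a description.

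Around Slc7a11, 84 annotated genes lie within 2000000 bases on chromosome 3. Of these, 23 have a row in the count table, and 10 of the 23 had enough counts to be tested in each comparison. By edgeR's quasi-likelihood test 0 of the 10 were called, and their log2 fold changes ran from -0.49 to 0.22 in GF and from -0.24 to 0.26 in exGF relative to CON. Unadjusted p under 0.05 was reached by 1, 0 and 1 of them in GF relative to CON, exGF relative to CON and exGF relative to GF. Over all genes tested the shares were 8.69%, 5.33% and 6.65%, and 0.251%, 0.0696% and 0% were called. The nearest tested gene beyond the 3′ end is Pcdh18, a protocadherin gene 135201 bases away, with changes of 0.10 in GF and 0.16 in exGF on the log2 scale. Before the start of Slc7a11 the nearest tested genes are Noct, Elf2 and Ndufc1, the first of them 780833 bases away, with changes in exGF of -0.08, -0.00194 and -0.07 on the log2 scale.

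**Figure D5:**
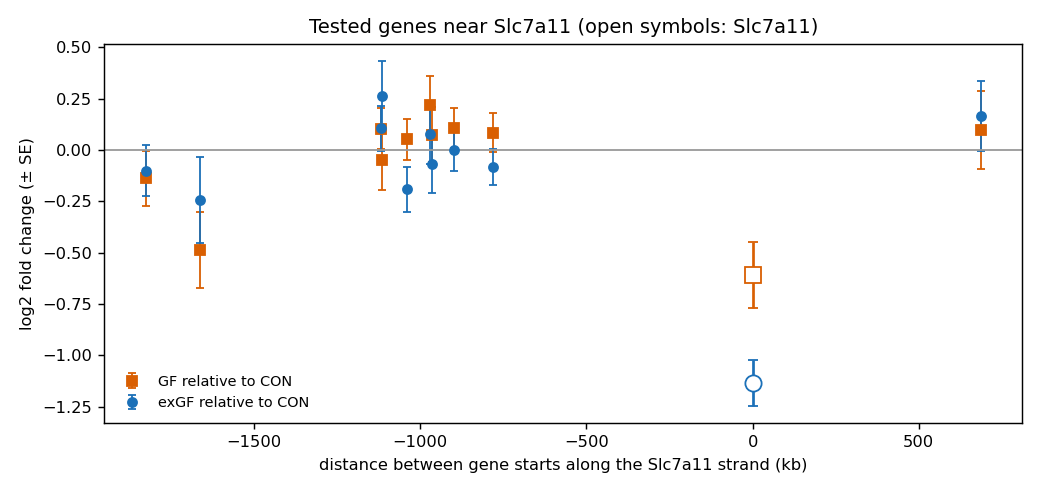
Log2 fold changes (with SE) of the 10 tested genes near Slc7a11 in GF and exGF relative to CON, against the distance between gene starts in kb along the strand of Slc7a11, which is drawn with open symbols at 0. The neighbours lie between -0.49 and 0.26, and Slc7a11 lies at -0.61 and -1.13.

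Across the 12 libraries, the genes whose log2 CPM most resembled that of Slc7a11 among 16031 others were Matn2 (Pearson r = 0.867), the pseudogene Gm14150 (0.860), Ndp (0.849), Slc25a17 (0.846) and Nhlrc1 (0.839). The 3 groups differ in Slc7a11, so any gene with the same order of groups scores high here. Matn2, a matrix protein gene, had 41.1 ± 2.64 CPM in CON, 32.9 ± 3.15 CPM in GF and 31.1 ± 1.19 CPM in exGF. Of the members, Txnrd1 was most like Slc7a11 (r = 0.569, order 459), and Slc3a2 had r = 0.0936. When each library was set against its group mean, which leaves only the spread within groups, the closest genes were Gtf2a2 (0.908), Hnrnpa0 (0.902), Smoc2 (0.882), Ccdc15 (0.872) and Hapln1 (0.864). GF replicate 2 sets much of that spread for Slc7a11, and these are descriptions over 12 libraries with shared depth and pooling.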

How the data were processed

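RNA of the prefrontal cortex was pooled from 2 to 3 animals per library before a stranded polyA library preparation. The submitters' processing notes name Trimmomatic 0.32, STAR, HTSeq 0.6.0 and build GRCm38.p3. The methods add Ensembl release 78 gene models and counting without strand, so pairs from overlapping genes on opposite strands could not be told apart. The authors deposited raw counts for 41388 genes in 12 libraries, with no normalization, and rows of unassigned pairs (12.952 to 19.227% aligned to several places, 4.574 to 7.315% on no gene, 1.104 to 1.316% ambiguous) were left out. Counts on genes ran from 13280926 to 29134760 per library.

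Names, coordinates and transcript lengths came from GENCODE M21 (GRCm38), which named 40254 of the genes, and promoter sequences from RefSeq (GRCm38.p6). Each pair of groups was fitted on its 8 libraries with edgeR 4.0.16 in R 4.3.3 (filterByExpr, TMM, quasi-likelihood test) and p-values were adjusted by Benjamini-Hochberg over all genes tested. The threshold for a call was an adjusted p of 0.1, as in the study's methods. SE is the log2 fold change divided by the square root of the F statistic. CPM used TMM library sizes over all 12 libraries. Alternatives were other normalizations, filters and thresholds, robust quasi-likelihood, DESeq2 1.42.0, limma-voom (limma 3.58.1), all 12 libraries in 1 fit, a replicate block and each library left out. Only the edgeR quasi-likelihood fit of GF relative to CON was tried on simulated counts. These had large changes and the same spread setting for all genes, so they say nothing of smaller changes.

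The members, lists and tests were chosen with earlier results of these data known. All 10 members were described. From each list, called genes were to be named, otherwise up to 3 with the smallest unadjusted p under 0.05. Some genes that this rule would name are not reported here. The 5 genes most like Slc7a11 were named, and up to 3 nearest tested genes on each side of it. Nothing says which animals shared a litter or cage, and p-values measure the spread between pools.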

Additional observations from a re-analysis of the deposited data

Results flagged for a closer look

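Slc7a11 in GF replicate 2 was far from the other libraries of its group. Its level was 64.6 CPM, where the other 3 GF libraries had 38.4 to 39.6 CPM, and the gap to the nearest of them was 0.954 of the range of the group, above Dixon's critical value for 4 libraries. This was 1 of 30 groups of 4 libraries examined over the 10 genes, and chance alone marks about 1 in 20. The meningeal, astrocyte and other marker sums of this library are given with the results, and their part in its Slc7a11 level was not tested.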

How the results depend on the processing

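Slc7a11 stayed below CON in GF and exGF, and in exGF below GF, in each of the 17 alternative fits of GF relative to CON and the 16 of each other comparison. Its log2 fold change in exGF relative to CON was -0.89 with DESeq2, whose prior shrinks fold changes, and -1.21 to -1.07 with each library left out. The number of members called in GF relative to CON was 1 (Slc7a11) without the filter on low counts, 1 with DESeq2 and 1 with the replicate number as a block, and 0 to 1 with each library left out (1 without GF replicate 2). The gene was chosen for this pattern, so its direction and calls over these settings are no sign of stability. The block changed no other call of the members or pathway lists, and the deviations of same-numbered CON and GF libraries from their group means correlated at -0.054 to 0.026, so the numbers were not taken as pairs. The exGF columns carry no sample number to pair. The pathway lists had 0 called genes in all 55 counts over settings, and the 9 other members had 0 calls in 441 values. The sign of 34 of these 441 changed, with none over 0.11 in size after the change. Gclc in GF relative to CON was -0.0022 with upper-quartile normalization, -0.0085 without the filter and -0.0031 with at least 10 counts in every library. In exGF relative to CON Gclc was 0.0007 without the filter, and in exGF relative to GF it was 0.0010 and Nfe2l2 0.0079 with upper-quartile normalization and Nfe2l2 0.0020 with at least 10 counts. With each library left out, the changes in GF relative to CON were -0.038 to 0.097 for Slc3a2, -0.050 to 0.053 for Gclc and -0.046 to 0.075 for Txnrd1. In exGF relative to CON they were -0.12 to 0.035 for Slc3a2, -0.066 to 0.029 for Gclc and -0.11 to 0.18 for Hmox1. In exGF relative to GF they were -0.026 to 0.0013 for Gclc, -0.13 to 0.087 for Nqo1, -0.069 to 0.046 for Srxn1 and -0.080 to 0.051 for Nfe2l2. The cause was not tested. Nqo1 had 33 to 110 counts per library and Hmox1 87 to 181, and each library is a pool of animals.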
